A study of Mus musculus with 6 samples.

Results

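Ces1d, Ces1e, Ces1f, Ces1g, Ces2a, Ces2b, Ces2c and Ces2e, which encode carboxylesterases, and Ephx1 and Ephx2, which encode the microsomal and the soluble epoxide hydrolase, were followed in large intestinal epithelium of germ-free mice with Hdac3 deleted and of controls. These 10 genes were chosen by family name with the measured differences of HDAC3ΔIEC against HDAC3FF arrays already known, and 9 of them were measured among 19533 genes on the arrays. No probe set naming Ces2c alone was found in the annotation used here. Because the list was drawn up with this comparison in view, the members' differences between genotypes, with the adjusted p-values that the fit over all genes gives them, are a description and support no further statement.

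Knockout cells came from 3 HDAC3ΔIEC mice, in which Hdac3 is deleted in intestinal epithelial cells, and the control cells from 3 HDAC3FF mice, which carry floxed Hdac3 alleles. All 6 mice were C57BL/6 and germ-free, so neither genotype had been exposed to a microbiota. Live cells positive for EpCAM, a surface protein of epithelia, were profiled on 1 Affymetrix array per mouse. Neither the age of the mice nor the driver of the recombinase is given in the labels.

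Carboxylesterases are serine hydrolases of the endoplasmic reticulum lumen, or of secretions, that cleave ester and amide bonds of drugs and of lipids such as triacylglycerol. In intestinal epithelium they process esters taken up from the lumen and take part in the handling of dietary fat. Epoxide hydrolases add water to epoxides, the microsomal enzyme mainly on reactive products of cytochrome P450 oxidation and the soluble enzyme mainly on epoxides of fatty acids. HDAC3 is a histone deacetylase that nuclear receptors recruit through the NCoR and SMRT corepressors, and nuclear receptors are known regulators of many drug- and lipid-metabolising genes.

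All values are log2 signals as deposited, so that a difference of 1 is a factor of 2. Hdac3 itself read 6.58, 6.22 and 6.00 in HDAC3ΔIEC cells and 6.96, 7.36 and 7.04 in HDAC3FF cells, with no overlap. The change of -0.86 ± 0.17 (SE, limma adjusted p = 0.0937) missed the threshold, and probes outside the deleted part of a gene check nothing. HDAC3FF replicate 3 stood apart from the other arrays of its group: 1.13% of genes differed by at least 1 from the mean of the other 2 controls, against 0.189% to 0.625% on the other 5 arrays. Leaving it out raised the number of genes past an adjusted p of 0.05 to 430, against 137 with all arrays, so the members are given with and without it. Precision is limited by there being 3 arrays per genotype. The epithelial markers Epcam (log2 fold change -0.06 ± 0.10, SE) and Vil1 (0.18 ± 0.13) did not pass.

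The carboxylesterase genes lie on chromosome 8 in the RefSeq annotation of GRCm38.p6, in 2 groups. Ces1a, Ces1b, Ces1c, Ces1d, Ces1e, Ces1f, Ces1g and Ces1h follow each other with no other protein-coding gene between them, with Ces5a next. The Ces2, Ces3 and Ces4 genes lie apart from these, beyond 68 other protein-coding genes. Ephx1 is on chromosome 1 and Ephx2 on chromosome 14. Promoter windows of RefSeq (GRCm38.p6) were at hand for 6 of the 10 members, and not for Ces1d, Ces1f, Ces2b and Ephx2. Those of Ces1e and Ces1g, of Ces2a and Ces2e and of Ephx1 are shown as examples of a Ces1 pair that read lower on every HDAC3ΔIEC array, a Ces2 pair whose groups overlapped and the member that rose. Each window runs from 250 to 21 bases before the annotated start, and capitals mark matches on either strand to AGGTCA (the core element of nuclear receptor sites), TATAAA (the TATA box), GTTAAT (part of HNF1 sites) or CAAAGT (part of HNF4 sites).
Ces1e (GRCm38.p6 chr8:93229640-93229869, minus strand): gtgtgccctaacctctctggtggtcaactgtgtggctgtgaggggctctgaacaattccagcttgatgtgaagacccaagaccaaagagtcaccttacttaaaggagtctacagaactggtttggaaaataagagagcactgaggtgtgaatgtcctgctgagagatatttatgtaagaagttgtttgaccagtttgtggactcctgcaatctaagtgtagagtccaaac
Ces1g (GRCm38.p6 chr8:93337230-93337459, minus strand): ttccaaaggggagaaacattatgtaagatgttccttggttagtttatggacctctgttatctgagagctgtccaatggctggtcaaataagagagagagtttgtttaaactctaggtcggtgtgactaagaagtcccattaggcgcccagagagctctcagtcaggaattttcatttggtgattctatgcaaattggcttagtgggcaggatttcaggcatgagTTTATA
Ces2a (GRCm38.p6 chr8:104733753-104733982, plus strand): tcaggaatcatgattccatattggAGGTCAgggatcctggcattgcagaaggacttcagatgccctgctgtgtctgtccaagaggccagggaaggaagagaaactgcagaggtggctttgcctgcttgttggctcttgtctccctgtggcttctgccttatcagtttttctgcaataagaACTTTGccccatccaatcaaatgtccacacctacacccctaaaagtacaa
Ces2e (GRCm38.p6 chr8:104926010-104926239, plus strand): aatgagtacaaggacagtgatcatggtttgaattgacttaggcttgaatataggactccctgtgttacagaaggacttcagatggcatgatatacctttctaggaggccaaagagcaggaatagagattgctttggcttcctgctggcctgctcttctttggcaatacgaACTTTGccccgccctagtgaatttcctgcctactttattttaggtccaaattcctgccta
Ephx1 (GRCm38.p6 chr1:181017590-181017819, minus strand): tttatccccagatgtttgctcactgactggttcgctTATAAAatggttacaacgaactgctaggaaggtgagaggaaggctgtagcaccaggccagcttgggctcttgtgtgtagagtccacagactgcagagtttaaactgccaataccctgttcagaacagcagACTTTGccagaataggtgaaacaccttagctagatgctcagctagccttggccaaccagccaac

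The HNF4 letters, read on the reverse strand, were found in the windows of Ces2a, Ces2e and Ephx1, beginning 70, 80 and 84 bases before the start, and in 11.73% of all 32851 promoter windows. The nuclear receptor letters were found in Ces2a, 226 bases before the start, and in 13.04% of all windows. The TATA box letters were found in Ces1g, on the reverse strand 26 bases before the start, in Ephx1, 214 bases before it, and in 11.78% of all windows. The HNF1 letters were in none of the 5 windows and in 6.088% of all. The Ces1e window held none of the 4 letter strings, and neither did that of Ces2c. Among other genes of both families, the HNF4 letters were in windows of Ces2f, Ces2g and Ephx3 and in 1 window of Ephx4, which lies inside the annotated gene. They were not in those of Ces1a, Ces1b, Ces1c, Ces1h, Ces2h, Ces3b, Ces4a, Ces5a and Lta4h. In the same genes, the nuclear receptor letters were in Ces2h and Ces4a and the TATA box letters in Ces1h and Ces3b. The HNF1 letters were in Ces3b and Ces5a. Such matches are descriptions of the letters and not sites of binding.

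Among the members, Ces1d and Ephx2 fell and Ephx1 rose at an adjusted p under 0.05, while 6 members did not pass. Ces1d and Ephx2 were at 24.1% and 24.5% of the HDAC3FF level, and Ephx1 was 1.48-fold higher. The Ces1 genes Ces1e and Ces1g were also lower on every HDAC3ΔIEC array without passing the test, whereas Ces1f, Ces2a and Ces2e had overlapping groups. The 3 members past the threshold of 9 measured stand beside 0.701% of all genes (0.369% higher and 0.333% lower). The 6 members whose groups did not overlap, 2 higher and 4 lower, stand beside 16.2% of all genes (8.45% higher and 7.7% lower). Nothing is read from these shares, since the members were listed with this comparison known. The members' median log2 fold change was -0.18, against 0.01 over all 19533 genes.

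**Figure D1:**
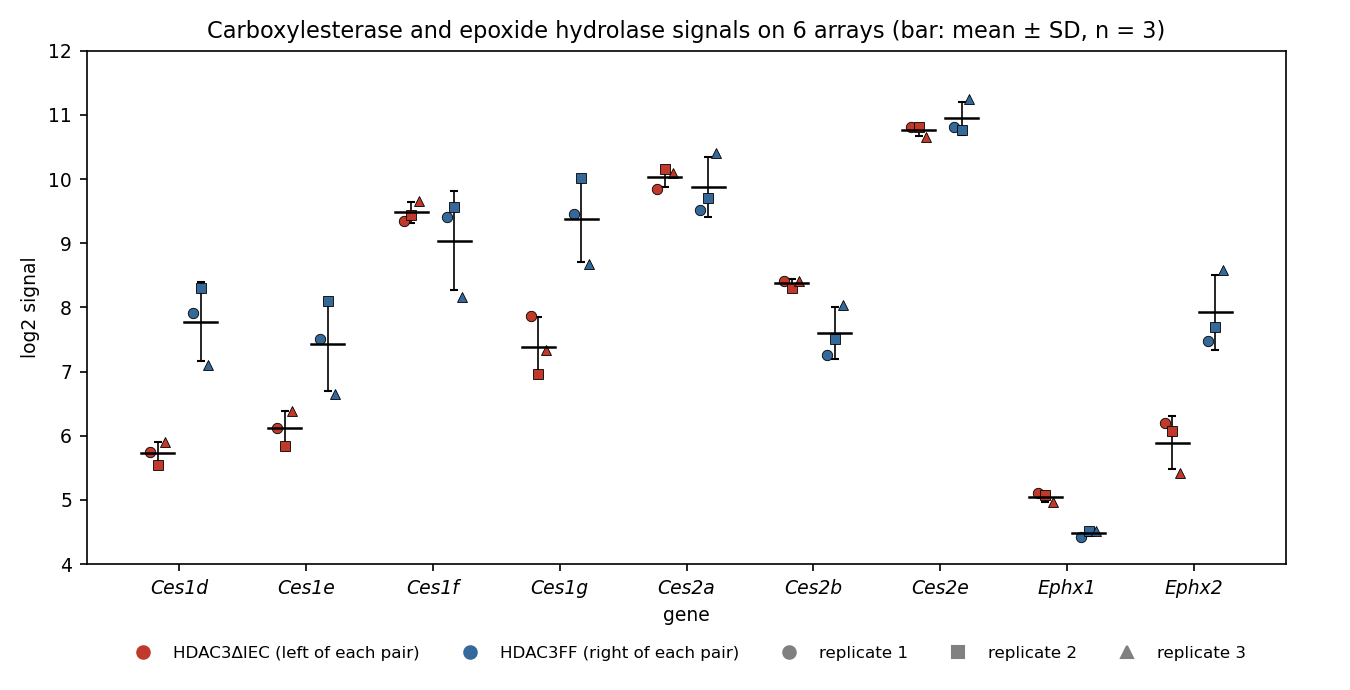
Log2 signals of the 9 measured members on each array (vertical axis) by gene (horizontal axis), with HDAC3ΔIEC left of HDAC3FF in each pair, symbols for replicates, and lines and bars for the mean ± SD of 3 arrays. Ces1d, Ces1e, Ces1g and Ephx2 lie lower and Ces2b and Ephx1 higher on all HDAC3ΔIEC arrays, and HDAC3FF replicate 3 (triangle) is the lowest control for the Ces1 genes and the highest for Ces2a, Ces2b, Ces2e and Ephx2.

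Ces1d encodes a triacylglycerol hydrolase of the endoplasmic reticulum, also known as TGH, which is best described in liver and fat. It read 5.74, 5.54 and 5.90 in HDAC3ΔIEC cells and 7.92, 8.31 and 7.11 in HDAC3FF cells. The highest HDAC3ΔIEC array was 1.21 below the lowest control, and the spread was wider among controls (SD 0.61) than among HDAC3ΔIEC arrays (SD 0.18, n = 3 each). This is a log2 fold change of -2.05 ± 0.28 (SE), with a 95% interval of -2.71 to -1.39, or 4.14-fold lower (limma adjusted p = 0.0352), the 6th lowest of all genes. Without HDAC3FF replicate 3 it was -2.39 (limma adjusted p = 0.00159). With any other array left out it lay between -2.14 and -1.79 and did not pass.

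Ces1e encodes egasyn, which holds beta-glucuronidase in the endoplasmic reticulum. It read 6.11, 5.84 and 6.38 in HDAC3ΔIEC cells and 7.51, 8.10 and 6.65 in HDAC3FF cells. The groups were separated by 0.27 only, and the control SD of 0.73 was the larger one, against 0.27 in HDAC3ΔIEC cells (n = 3 each). With all arrays its log2 fold change was -1.31 ± 0.34 (SE, limma adjusted p = 0.175), and it was -1.69 without HDAC3FF replicate 3 (limma adjusted p = 0.0175). Leaving out any other array gave -1.44 to -0.97, and it did not pass.

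Ces1g, known as Es-x or Ces1, is a lipid-hydrolysing member studied in liver and intestine. It read 7.87, 6.96 and 7.33 in HDAC3ΔIEC cells and 9.45, 10.01 and 8.67 in HDAC3FF cells. All 3 HDAC3ΔIEC arrays lay under the controls, with a gap of 0.80. Its log2 fold change was -1.99 ± 0.36 (SE, log2), with a 95% interval of -2.83 to -1.16 and a limma adjusted p of 0.0693. Without HDAC3FF replicate 3 it was -2.34 (limma adjusted p = 0.0142). It lay between -2.23 and -1.68 with any other array left out and did not pass.

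Ces1f, also called TGH-2, lies between Ces1e and Ces1g on the chromosome and differed from both neighbours. It read 9.35, 9.44 and 9.66 in HDAC3ΔIEC cells and 9.41, 9.56 and 8.15 in HDAC3FF cells. HDAC3FF replicates 1 and 2 lay among the HDAC3ΔIEC values and replicate 3 lay below all of them. With all arrays the log2 fold change was 0.44 ± 0.35 (SE, 95% interval -0.37 to 1.25), and without HDAC3FF replicate 3 it was -0.0033. All 4 Ces1 members were low on HDAC3FF replicate 3, whose difference from the mean of the other 2 controls was -1.005 for Ces1d, -1.154 for Ces1e, -1.330 for Ces1f and -1.059 for Ces1g.

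Taking each gene's difference to Ces1f on the same array, a comparison chosen after the values were seen, gave a smaller spread among controls for Ces1d, Ces1e and Ces1g. Only the change between genotypes can be read from such a difference, since the probe sets differ in brightness. For Ces1d the difference was -3.61, -3.90 and -3.76 in HDAC3ΔIEC cells and -1.49, -1.25 and -1.05 in HDAC3FF cells, and the control SD was 0.22 in place of 0.61. Relative to Ces1f, Ces1d was thus 5.62-fold lower, Ces1e 3.36-fold lower and Ces1g 5.40-fold lower in HDAC3ΔIEC cells. The SD of these differences was 0.15, 0.20 and 0.54 in HDAC3ΔIEC cells and 0.22, 0.24 and 0.26 in HDAC3FF cells (n = 3 each). For Ces1g the HDAC3ΔIEC spread was wider after this step, with an SD of 0.54 in place of 0.46. Ces1f was chosen as the gene to subtract because it did not fall, so these folds are a description with no test. Ces1 transcripts are close paralogs, and a value is uncertain to the extent that probes match more than 1 of them. Probe sequences were not used here.

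**Figure D2:**
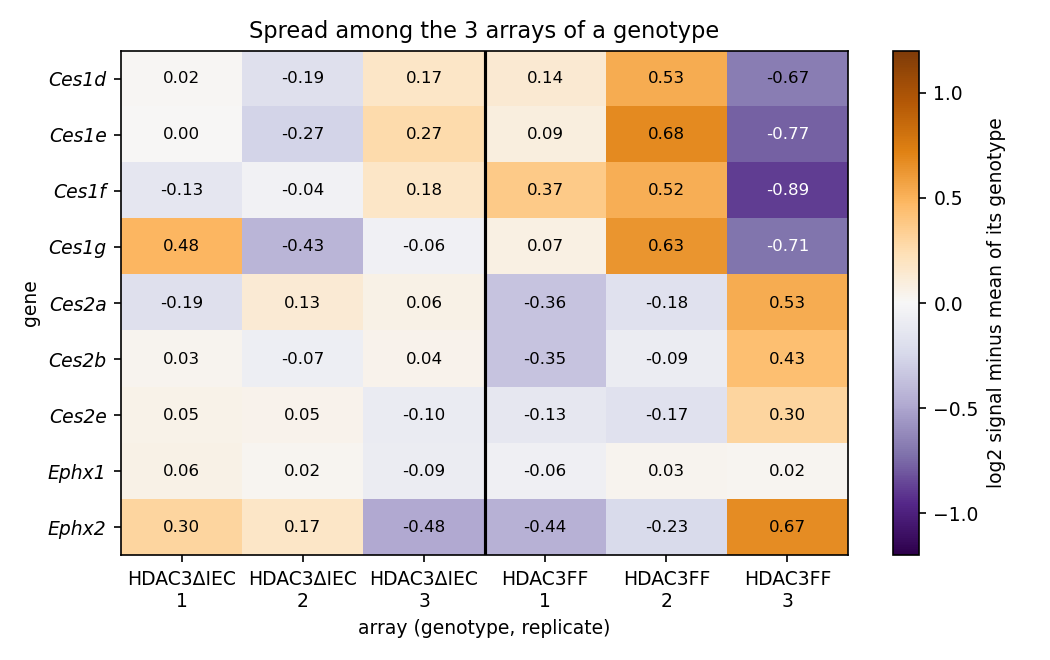
Log2 signal of each member minus the mean of its genotype (colour and printed value), with genes as rows and the 6 arrays as columns, HDAC3ΔIEC left of HDAC3FF. HDAC3FF replicate 3 is low for Ces1d, Ces1e, Ces1f and Ces1g (-0.67 to -0.89) and high for Ces2a, Ces2b, Ces2e and Ephx2 (0.30 to 0.67), while Ephx1 varies by less than 0.1.

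Of the Ces2 genes, which encode the carboxylesterases most typical of intestine, none passed. Ces2b, a member whose enzyme is little described, read 8.41, 8.31 and 8.42 in HDAC3ΔIEC cells and 7.25, 7.51 and 8.03 in HDAC3FF cells. All 3 HDAC3ΔIEC arrays were above the controls, by a gap of 0.27 to HDAC3FF replicate 3. Ces2b was 1.71-fold higher on average, a log2 fold change of 0.78 ± 0.19 (SE) with a 95% interval of 0.34 to 1.22 (limma adjusted p = 0.144). Without HDAC3FF replicate 3 it was 0.99 (limma adjusted p = 0.0111). Any other array left out gave 0.60 to 0.81, and Ces2b did not pass.

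Ces2a read 9.85, 10.16 and 10.10 in HDAC3ΔIEC cells and 9.52, 9.70 and 10.41 in HDAC3FF cells. The groups overlapped, with 1 control above all HDAC3ΔIEC arrays, and the log2 fold change was 0.16 ± 0.23 (SE, 95% interval -0.37 to 0.69). It ranged from -0.02 to 0.42 with 1 array left out, the highest being the value without HDAC3FF replicate 3. Ces2e read 10.82, 10.81 and 10.66 in HDAC3ΔIEC cells and 10.81, 10.77 and 11.25 in HDAC3FF cells. Its groups overlapped as well, and its log2 fold change of -0.18 ± 0.14 (SE) had a 95% interval of -0.51 to 0.14, which leaves out a fall as large as that of Ces1d or Ces1g. The Ces2e change was -0.03 without HDAC3FF replicate 3. On HDAC3FF replicate 3 these 3 Ces2 genes read 0.46 to 0.80 above the mean of the other 2 controls, opposite in sign to the Ces1 genes.

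Ephx2 encodes the soluble epoxide hydrolase, a cytosolic and peroxisomal enzyme that turns epoxides of arachidonic and linoleic acid into diols. It read 6.20, 6.07 and 5.42 in HDAC3ΔIEC cells and 7.48, 7.70 and 8.59 in HDAC3FF cells. The groups were 1.28 apart, the widest gap of the 9 members, although the spread within each was also wide (SD 0.42 in HDAC3ΔIEC cells and 0.59 in HDAC3FF cells, n = 3 each). Its log2 fold change of -2.03 ± 0.32 (SE), with a 95% interval of -2.77 to -1.28, was the 8th lowest of all genes (limma adjusted p = 0.0481). HDAC3ΔIEC replicate 3 was the lowest and HDAC3FF replicate 3 the highest array: without the first the log2 fold change was -1.79 and did not pass (limma adjusted p = 0.118), and without the second it was -1.69 and passed (limma adjusted p = 0.0205).

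Ephx1 encodes the microsomal epoxide hydrolase, which detoxifies epoxides made by cytochrome P450 enzymes. It read 5.11, 5.07 and 4.96 in HDAC3ΔIEC cells and 4.43, 4.52 and 4.51 in HDAC3FF cells. The groups were separated by 0.45 and each varied little (SD 0.08 in HDAC3ΔIEC cells and 0.05 in HDAC3FF cells, n = 3 each). Ephx1 rose by 0.57 ± 0.08 on the log2 scale (SE, 95% interval 0.37 to 0.76, limma adjusted p = 0.0402). All 6 values lay below the median signal of their array, and the files do not mark which signals are below background. This change stayed between 0.54 and 0.61 with each array left out, and passed in 1 of these 6 cases. That case was the fit without HDAC3FF replicate 3, at 0.58 (limma adjusted p = 0.0351).

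**Figure D3:**
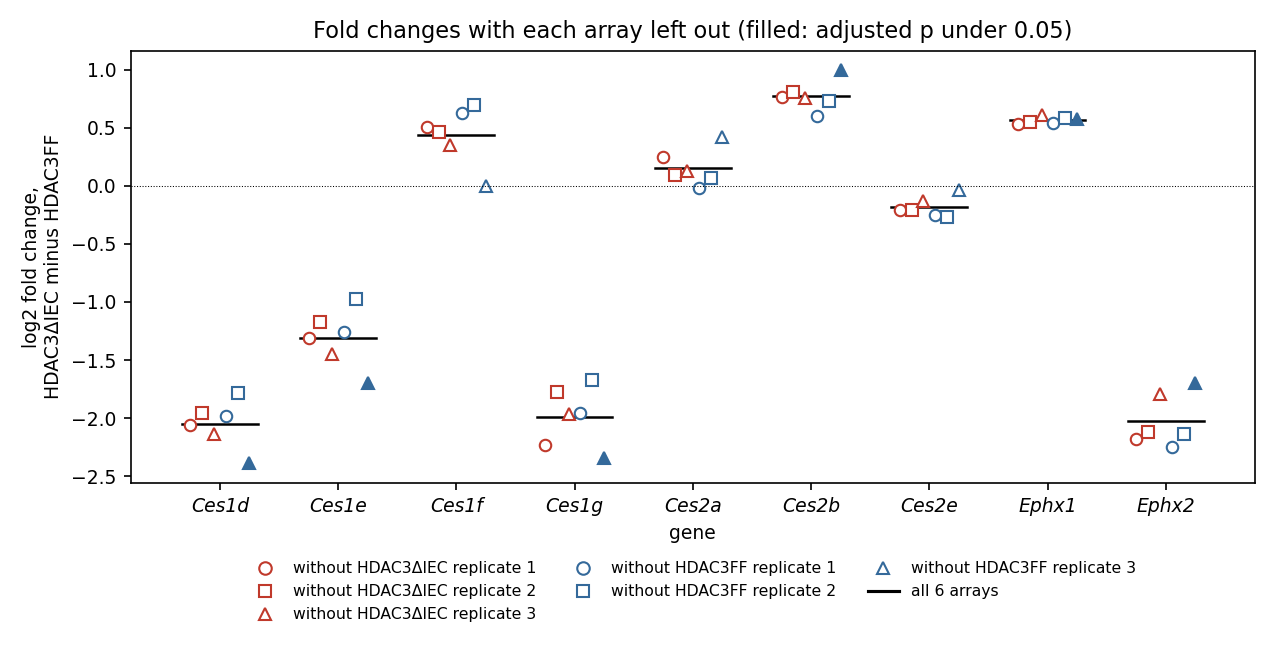
Log2 fold change (HDAC3ΔIEC minus HDAC3FF, vertical axis) of each member with 1 of the 6 arrays left out, with a line for the value from all arrays; colour gives the genotype and symbol the replicate left out, and filled symbols passed an adjusted p of 0.05. Filled symbols occur only without HDAC3FF replicate 3, where 6 of 9 members passed, beside 2.2% of all genes.

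The measured differences of the other genes of both families were small. Of 12 other listed carboxylesterase and epoxide hydrolase genes that were measured, 0 passed limma's test, beside 0.701% of all genes. Of the 12, 1 had an unadjusted p under 0.05, as had 2192 of all 19533 genes. Nothing is read from these counts, since the members were listed with this comparison known. Their log2 fold changes ran from -0.28 to 0.15, and 10 of the 12 had mean signals below the median of all genes. Ces1b, a neighbour of Ces1d at the other side of Ces1c, read 3.70, 3.73 and 3.91 in HDAC3ΔIEC cells and 4.14, 4.03 and 4.02 in HDAC3FF cells. It was the 1 gene of the 12 whose groups did not overlap (-0.28 ± 0.09, SE, limma adjusted p = 0.294), on signals below the median of every array. Over all genes 16.2% had groups that did not overlap. Ces1a (0.11 ± 0.14) and Ces1c (0.08 ± 0.11) were as dim and overlapped, and so did Ces5a (-0.13 ± 0.13).

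Among the Ces2, Ces3 and Ces4 genes outside the list, Ces2f (0.15 ± 0.10, SE), Ces2g (-0.15 ± 0.13), Ces3a (0.11 ± 0.16), Ces3b (0.14 ± 0.17) and Ces4a (0.03 ± 0.08) did not pass. Ephx3 (0.10 ± 0.09) and Ephx4 (0.01 ± 0.11) were dim on all arrays. Lta4h, which encodes the bifunctional leukotriene A4 hydrolase, was clearly expressed at 7.62 ± 0.13 in HDAC3ΔIEC cells and 7.61 ± 0.33 in HDAC3FF cells (SD, n = 3 each), with a log2 fold change of 0.01 ± 0.17 (SE) and a 95% interval of -0.38 to 0.41.

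**Figure D4:**
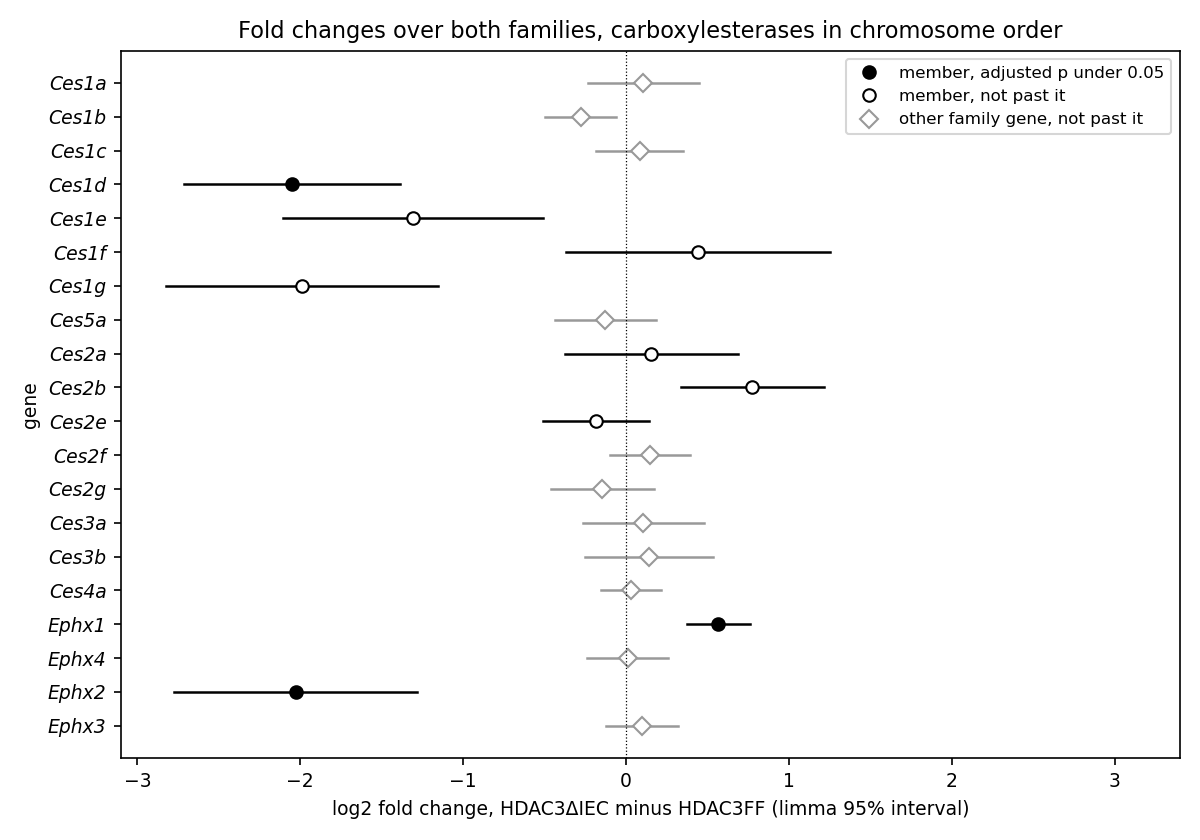
Log2 fold change (HDAC3ΔIEC minus HDAC3FF, horizontal axis) with limma's 95% interval for members (black circles, filled where the adjusted p was under 0.05) and other genes of both families (grey diamonds), carboxylesterases in chromosome order and epoxide hydrolases below. Ces1d, Ephx2 and Ces1g, with values near -2, stand apart from the other genes, which apart from Ces1e (-1.31) lie within 1 of 0. Lta4h, counted in the text among the other genes, is not drawn.

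Genes that act on the same kinds of substrate were read from lists drawn up with earlier results of these data known. Of 33 measured other hydrolases of lipid and drug esters or amides, 2 rose, 1 fell and 30 did not pass, with a median of -0.04 against 0.01 over all genes. Mgll, the monoacylglycerol lipase, rose by 2.45 ± 0.11 (SE, limma adjusted p = 0.000645) and passed whichever of the 6 arrays was left out. Pnliprp2, a pancreatic lipase-related protein, rose by 1.61 ± 0.25, and Bche, butyrylcholinesterase, fell by 1.21 ± 0.11. Bche passed without 4 of the 6 arrays and Pnliprp2 without 1, HDAC3FF replicate 3. Without that array 3 genes of the list were higher and 3 lower, where 2.20% of all genes passed, against 0.701% with all arrays.

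Of 24 measured genes of arachidonic acid metabolism, a list that joins cytochrome P450 enzymes, some of which make the epoxides that Ephx2 hydrolyses, with enzymes of prostaglandins and leukotrienes, none passed limma's test. The smallest p were those of Cyp4f16, a fatty acid hydroxylase, at 1.41 ± 0.23 (SE, limma adjusted p = 0.0563), and Hpgd, the prostaglandin dehydrogenase, at -1.15 ± 0.22 (limma adjusted p = 0.0793). The list's median was 0.01, and without HDAC3FF replicate 3, 1 gene was higher and 1 lower, beside 2.20% of all genes in both directions. The 27 phase I genes held 3 rises and no fall, and 24 were not past the threshold (median 0.07), beside 0.369% of all genes higher and 0.333% lower. Those that rose were the aldo-keto reductase Akr1b8 (2.16 ± 0.29), the cytochrome P450 Cyp2d26 (0.79 ± 0.12) and the monoamine oxidase Maoa (0.65 ± 0.10). Akr1b8 and Cyp2d26 each passed without 2 of the 6 arrays and Maoa without 1. Without HDAC3FF replicate 3, 6 phase I genes were higher and 2 lower at the same threshold, beside 2.20% of all genes in both directions.

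None of 21 conjugating enzymes passed (median -0.06). The sulphotransferase Sult1a1 had -1.67 ± 0.28 (SE, limma adjusted p = 0.0620) and the glucuronosyltransferase Ugt2b34 -0.55 ± 0.10 (limma adjusted p = 0.0770). Without HDAC3FF replicate 3, 1 was higher and 3 were lower, beside 2.2% of all genes in both directions. Among 24 receptors and factors of the xenobiotic and lipid response, Hnf4g, a nuclear receptor of intestinal epithelium, fell by 1.49 ± 0.20 (limma adjusted p = 0.0334), Nr0b2, the corepressor SHP, rose by 0.72 ± 0.10 (limma adjusted p = 0.0383), and 22 did not pass (median 0.10). Hnf4g passed without 2 of the 6 arrays and Nr0b2 without 1. All 6 Nr0b2 values lay below the median signal of their array. Over all genes 0.701% passed with all arrays.

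Genes of the compartments where these enzymes reside were read in the same way. None of 16 measured genes of the folding and retention machinery of the endoplasmic reticulum passed (median 0.05), with Kdelr3, a receptor for retained proteins, at 0.33 ± 0.10 (SE, limma adjusted p = 0.238) and the chaperone Calr at 0.17 ± 0.11. Of 21 genes of peroxisome import and beta oxidation, the transporter Abcd3 rose (0.66 ± 0.10), the octanoyltransferase Crot fell (-0.63 ± 0.08) and 19 did not pass (median 0.03). Each of these 2 passed without 1 of the 6 arrays, HDAC3FF replicate 3. Over all genes 0.701% passed with all arrays, and the lists were drawn up with earlier results known.

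Genes outside the list whose signals over the 6 arrays ran closest to a member were found by root mean square distance of log2 profiles. Each profile was centred on its own mean. The search covered 9406 genes brighter than the median and left out the members, so it does not show how close members ran to each other. The distance takes in the difference between genotypes, so a change like the member's follows from the choice and supports nothing. Closest to Ces1d among these genes were Sdc2, at 0.22, Aadac, at 0.26, and Ttr, at 0.32. They encode a heparan sulphate proteoglycan, arylacetamide deacetylase and transthyretin. Aadac read 7.22, 6.86 and 6.86 in HDAC3ΔIEC cells and 9.62, 9.61 and 8.09 in HDAC3FF cells, and so was lowest among controls on the same array as the Ces1 genes. With all arrays the log2 fold change was -2.13 ± 0.39 (SE, limma adjusted p = 0.0790), and it was -2.64 without HDAC3FF replicate 3 (limma adjusted p = 0.00105).

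Closest to Ephx2 were Gramd1b (0.29), which encodes a sterol transport protein, Rgs16 (0.38), a regulator of G protein signalling, and Slc10a2 (0.39), the apical bile acid transporter. Slc10a2 read 9.74, 8.92 and 8.75 in HDAC3ΔIEC cells and 10.85, 10.26 and 11.19 in HDAC3FF cells, highest on HDAC3FF replicate 3 and lowest on HDAC3ΔIEC replicate 3 like Ephx2. Closest to Ephx1 were Paqr8 (0.04), Slc25a34 (0.06) and Lpcat3 (0.06), which encode a membrane progestin receptor, a mitochondrial carrier and a lysophospholipid acyltransferase. These 3 rose by 0.58 ± 0.09, 0.63 ± 0.09 and 0.62 ± 0.09 (SE, limma adjusted p from 0.0352 to 0.0423), and each passed without 1 of the 6 arrays, HDAC3FF replicate 3. Since they were picked for closeness to Ephx1 on the same arrays, rises like its own follow from the choice.

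**Figure D5:**
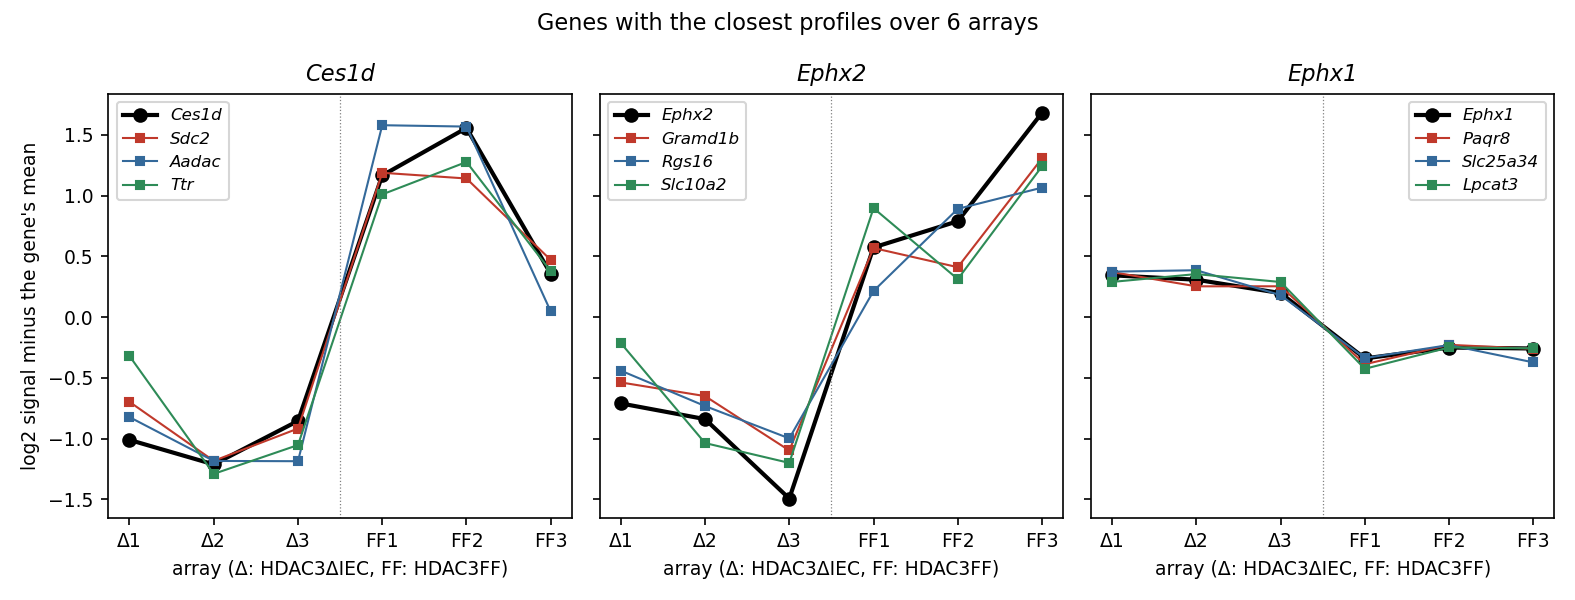
Log2 signal minus the gene's own mean (vertical axis) on the 3 HDAC3ΔIEC and 3 HDAC3FF arrays (horizontal axis) for Ces1d, Ephx2 and Ephx1 (black). Beside each are the 3 closest genes that are not members. On the third control array Ces1d and its 3 closest genes read lower than on the other 2 and Ephx2 read highest, while the Ephx1 group is flat within each genotype.

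In bulk samples such as these, fewer cells of a type and less RNA per cell cannot be told apart. The summed linear signal of 14 enteroendocrine genes was 8564 to 10825 in HDAC3ΔIEC cells and 2842 to 5274 in HDAC3FF cells. Of the 14, 2 rose, Insl5 (3.07 ± 0.28, SE) and Pyy (2.22 ± 0.33), against 6 without HDAC3FF replicate 3. Over all genes 0.701% passed with all arrays and 2.2% without that one. The summed signal of 6 measured fat and liver genes was 357 to 605 in HDAC3ΔIEC cells and 916 to 1608 in HDAC3FF cells. It moved mainly with Ttr (-1.77 ± 0.30), while Retn had -0.17 ± 0.13 and 3 of the 6 lay above 0 (median -0.05), and 4 of the 6 genes were below the median signal. That of 15 myeloid genes was 517 to 599 in HDAC3ΔIEC cells and 631 to 705 in HDAC3FF cells, and 12 of the 15 were below the median signal. C1qa fell (-1.71 ± 0.19), while 9 of the 15 lay above 0 and 6 below, with a median of 0.02. The part of these genes in the members' differences was not tested.

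Sums of the other marker lists overlapped between genotypes. Those of 17 surface colonocyte genes, for which Slc26a3 had -0.44 ± 0.08 (SE) and Plac8 0.44 ± 0.10, were 69781 to 80353 in HDAC3ΔIEC cells and 68650 to 78995 in HDAC3FF cells. The sums of 14 small intestine genes were 13687 to 18648 in HDAC3ΔIEC cells and 11729 to 16091 in HDAC3FF cells, and those of 11 genes of colon position 3496 to 5431 in HDAC3ΔIEC cells and 4537 to 6128 in HDAC3FF cells. None of the genes of these 3 lists passed. Among small intestine genes 10 lay above 0 and 4 below (median 0.14). The bile acid transporter Slc10a2, also among the closest to Ephx2, had -1.63 ± 0.31, and Mttp had 1.58 ± 0.31. Of the 2 brightest genes of the list, Fabp2 had 0.06 ± 0.10 and Fabp6 2.23 ± 0.51, or 1.64 for Fabp6 without HDAC3FF replicate 3. Of the colon position genes 3 lay above 0 and 8 below (median -0.23), with Hoxd10 at -0.81 ± 0.21 and Cdx2 at -0.22 ± 0.10.

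The remaining marker lists had no passing member and medians between -0.17 and 0.04. Of 14 crypt genes 8 lay above 0 and 6 below (median 0.04), and the smallest p were those of Lgr5 (-0.73 ± 0.23, SE) and Myb (-0.62 ± 0.20). Of 10 goblet cell genes 3 lay above 0 and 7 below (median -0.07), with Retnlb at -1.15 ± 0.19 and Muc2 at 0.21 ± 0.12. Tuft cell genes had 2 of 9 above 0 (median -0.17), with Gng13 at -1.36 ± 0.41 and Gfi1b at -0.18 ± 0.13. Lymphoid genes had 8 of 14 above 0 (median 0.01), with Cd3e at -0.22 ± 0.09 and Gzmb at 0.21 ± 0.08, and 13 of the 14 were below the median signal. Fibroblast and muscle genes had 8 of 12 above 0 (median 0.04), with Vim at 0.49 ± 0.19 and Tagln at 0.27 ± 0.15. Endothelial genes had 3 of 8 above 0 (median -0.01), with Pecam1 at -0.12 ± 0.08 and Lyve1 at 0.21 ± 0.15. Without HDAC3FF replicate 3, 3 of 17 surface colonocyte genes and 2 of 14 small intestine genes were higher and 2 of 14 crypt genes lower. In that fit 2.2% of all genes passed.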

How the data were processed

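RNA of epithelial cells from 6 mice was labelled with biotin and hybridised to 1 Affymetrix array each, per the labels' protocols. The authors deposited log2 signals, 1 value for each probe set on each array. The submitters' processing notes name Affymetrix Power Tools. How background and normalization were handled is not stated there, and signals below background are not marked. Arrays have no sequencing depth: their number limits the precision.

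Of 24939 probe sets, 21105 name exactly 1 gene. The brightest probe set on average stood for each of 19533 genes. Genotypes were compared with limma 3.58.1 in R 4.3.3 (lmFit and eBayes, two-sided, no covariate), with Benjamini-Hochberg adjustment over all 19533 genes and a threshold of 0.05. Errors called SE are limma's moderated ones. The series design text calls the 3 mice per genotype biological replicates, and no 2 arrays held the same values. Both genotypes carry replicate numbers 1 to 3, and nothing says that a number marks a pair.

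Members and gene lists were chosen with earlier results of these data known. Named genes are the members, the other genes of both families, and Hdac3, Epcam and Vil1. Per list they are up to 4 passing genes with the largest change or, if none passed, the 2 with the smallest p. The 2 brightest genes of each marker list were also picked, of which Fabp2, Fabp6 and those named for another reason are printed. The 3 closest profiles to Ces1d, Ephx2 and Ephx1 were taken leaving out members, predicted models and clone names. The fit was tested on simulated data. Alternatives covered the replicate block, eBayes settings, array weights, normalization, dim filters, probe set choice, thresholds and each array left out. Promoter windows are RefSeq's (GRCm38.p6), searched with Python 3.11.15.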

Additional observations from a re-analysis of the deposited data

How the results depend on the processing

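With all 9 measured members considered, 3 passed limma's test among 137 genes in all. The number of passing members was between 0 and 6 with 1 array left out, and that of all genes between 13 and 430. It was 0 of 9 without each array other than HDAC3FF replicate 3, and 6 of 9 without that one. Array weights gave 6 members and 357 genes, adjustment over all probe sets 1 member and 90 genes, and ordinary unmoderated statistics 0 members and 0 genes, where 2192 genes had an unadjusted p under 0.05 with limma. At an adjusted p under 0.10, 321 genes passed. At 0.05 with a log2 fold change of at least 1 besides, 73 passed. With the replicate number as a block, 0 members and 12 genes passed. Deviations of same-numbered arrays from their group means correlated at -0.02, -0.07 and -0.20, and those of differently numbered arrays at -0.21 to 0.20. Deviations within a group sum to 0, so these values cannot tell whether a number marks a pair. Dim filters, an intensity trend, a robust prior, quantile normalization, centring on medians and the mean of all probe sets left 2 to 4 passing members. Of 152 fold changes of single members under these alternatives, 2 changed sign, both of genes that did not pass: Ces1f at -0.0033 without HDAC3FF replicate 3 (highest 0.6984 without HDAC3FF replicate 2) and Ces2a at -0.0226 without HDAC3FF replicate 1 (highest 0.422 without HDAC3FF replicate 3). Ces1d passed in 10 of 17 alternatives, Ephx2 in 7 of 17 and Ephx1 in 8 of 16, having no value where genes below the median were left out. Why calls were lost was not tested, and a fit with 1 array left out also has fewer arrays.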
